A study of Mus musculus with 16 samples.

Results

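The 60 genes described here encode the machinery that moves proteins between the endoplasmic reticulum (ER) and the Golgi apparatus. They were chosen by name, from 20622 genes in the total RNA tables, and fall into 6 role groups. These are the COPII coat and its ER exit sites (14 genes), the cargo and retrieval receptors (10), the p24 family (8), the COPI coat and its Arf GTPases (11), the golgins and Golgi matrix (11) and the SNAREs of the early secretory pathway (6).

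Ribosome-protected fragments (RPFs), the stretches of mRNA shielded by ribosomes, and total RNA from the same cytoplasmic lysates were sequenced from lung tumour cells of the mouse. KM cells of both lines carry Rosa26LSL-MYC/LSL-MYC alleles, that is, Cre-inducible MYC, with a further Cre-inducible allele, and came from tumours of 1 male mouse that had received Ad5-SPC-CRE. The KM_NTC line carries a non-targeting CRISPR guide, and KM_4A2cr carries a guide against Eif4a2, which encodes an eIF4A helicase, and is a pool of 4 clones that lacked the protein. Both lines were puromycin-selected and untreated, each line has 4 RPF and 4 total RNA libraries (16 in all), and replicates 1 to 4 are experiments on different days. Effects of cloning and of losing Eif4a2 cannot be told apart in this design. The question for these genes was how their ribosome occupancy and mRNA levels differ between the lines.

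Proteins leave the ER in vesicles wrapped by the COPII coat, and escaped residents and vesicle components are carried back by the COPI coat. Both coats are cytosolic proteins that assemble on the membrane surface, whereas the receptors and p24 proteins span the membrane or sit in its lumen and are themselves made at the ER. Golgins tether arriving vesicles at the Golgi, and SNAREs drive the fusion that follows.

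The RPF libraries held 4512403 to 9621848 counts and the total RNA libraries 5350919 to 9312622. Levels are given as CPM, a gene's count as a share of its TMM-scaled library, so every value is relative to that library, and fewer cells of a type and less RNA per cell cannot be told apart. All 4 epithelial markers were detected in every library, but Sftpc and Sftpb, markers of the alveolar type II cells that SPC-CRE targets, were at 0 in all 8 total RNA libraries. Of the other type II markers listed, Abca3 was at 27.6 to 47.6 TPM, Lamp3 at 0.52 to 1.63 and Nkx2-1 at 0 to 0.12. Eif4a2 RPF levels were 97.7, 122, 99.8 and 389 CPM in KM_NTC (replicates 1 to 4) and 51.0, 88.4, 74.8 and 346 CPM in KM_4A2cr. CRISPR cutting need not remove the mRNA, and why RPFs of Eif4a2 remained in KM_4A2cr was not tested. RPF levels of Eif4a2 were lower in KM_4A2cr in 4 of 4 pairs (log2 fold change -0.49, SE 0.15, adjusted p = 0.0941), and its mRNA did not pass the test (log2 fold change -0.18, SE 0.13, adjusted p = 0.504). Eif4a2 lies on chromosome 16, where the medians over tested genes were -0.12 in RPFs and -0.13 in total RNA, and the part of that shift in the Eif4a2 values was not tested. Among the members, replicate 4 stood apart from replicates 1 to 3 in both lines, so results are given with and without it. The median log2 difference of its RPFs from their mean was 0.41 in KM_NTC and 0.51 in KM_4A2cr. Cd68, the only leukocyte marker of 4 that reached 1 TPM, was at 220 TPM in KM_NTC and 154 TPM in KM_4A2cr in replicate 4, against 32.5 to 62.9 TPM in replicates 1 to 3, and the part of other cells in the results was not tested.

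In RPFs, 5 of the 18 receptors and p24 proteins rose in KM_4A2cr, 2 COPII components fell, and no COPI member passed the test. Of 59 members tested, 8 rose in all: the KDEL receptors Kdelr3 and Kdelr2, the cargo receptor Lman2, the p24 proteins Tmed2 and Tmed10, the exit site protein Mia2, the golgin Golga4 and the SNARE Ykt6. Sec16a and Sec13, both of the COPII coat and its exit sites, fell. The threshold was an adjusted p of 0.1 in the quasi-likelihood test of edgeR, blocked by replicate. Over all 10291 genes tested, 10.3% were called, 6.6% higher and 3.72% lower. The median log2 fold change of KM_4A2cr over KM_NTC was 0.19 over the 59 members, 44 of them above 0, against -0.01 over all genes. DESeq2 called 9 members higher and 2 lower, a fit for which the share of all genes called was not counted. Without replicate 4, 26 members were called higher and 9 lower, against 19.1% and 14.3% of all genes (33.4% in either direction). Without replicate 1, 2 or 3, only Kdelr3 was called among the members, and without the block none was, 2 members having an unadjusted p under 0.05. The share of all genes called in these fits was not counted, so the loss of calls cannot be read as particular to the members. Scaling by library size alone moved the median of all genes to -0.14 in RPFs and -0.15 in total RNA. Under it the receptors and p24 proteins had medians of 0.26 in both kinds, whereas the COPII, SNARE and COPI medians were below 0 in both and that of the golgins was below 0 in total RNA. Copz2, the minor zeta subunit of COPI, was too low to test, with a mean of 0.64 TPM, the deposited mRNA level scaled to transcript length and library.

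By pair, 14 of the 59 members were higher in KM_4A2cr in 4 of 4 RPF pairs (14.1% of all genes were) and 4 were lower in 4 of 4 (16.0%). More common among the members were differences that turned in pair 4. In 15 members the RPF level was higher in KM_4A2cr in pairs 1 to 3 and lower in pair 4 (13.0% of all genes), and in 11 the reverse held (12.4%).

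**Figure D1:**
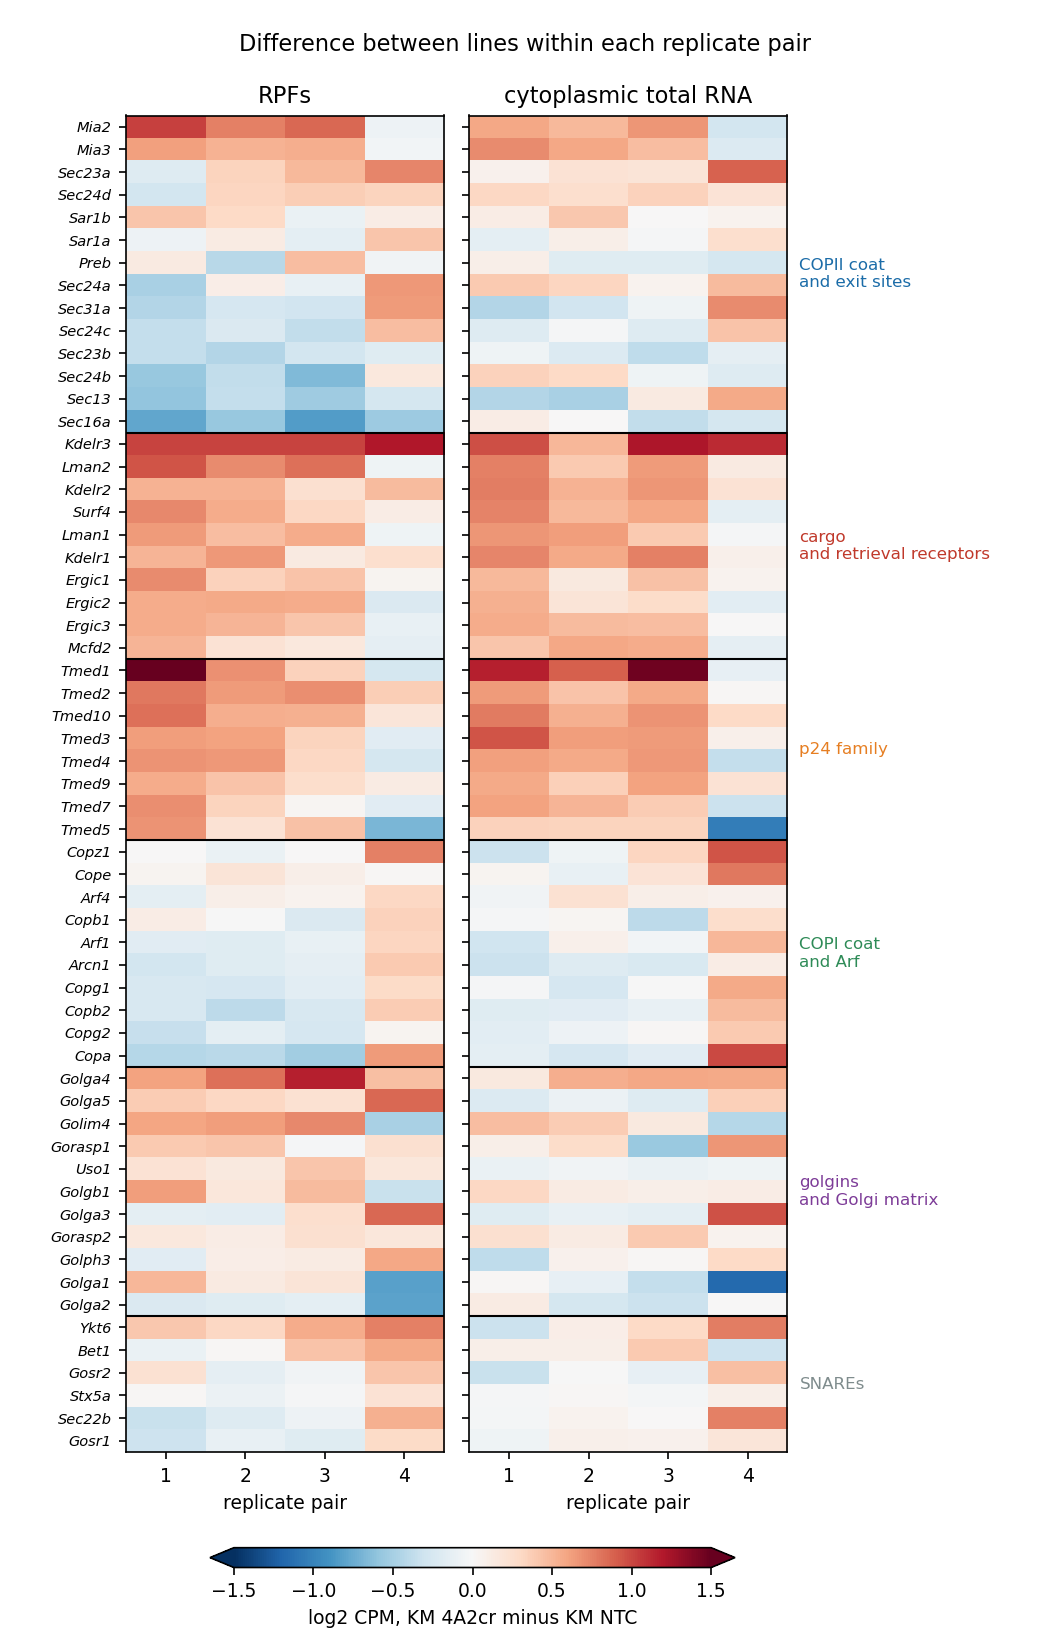
Heat map of the log2 CPM difference, KM_4A2cr minus KM_NTC, of the 59 tested members (rows, by role group) in each replicate pair (columns), in RPFs on the left and cytoplasmic total RNA on the right; red is higher in KM_4A2cr and blue lower. All 10 receptors and 8 p24 proteins are red in pairs 1 to 3, and all 10 COPI members are red in pair 4.

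The KDEL receptors return escaped ER residents to the ER by binding a retrieval signal at their C terminus. Kdelr3 had the largest RPF increase of all members, 2.11-fold. For Kdelr3, the 4 KM_NTC libraries had RPF levels of 13.0, 8.04, 15.2 and 57.7 CPM and the 4 of KM_4A2cr had 26.6, 16.5, 31.0 and 133 CPM. KM_4A2cr was the higher line in each of the 4 pairs (log2 fold change 1.08, SE 0.13, adjusted p = 0.00453), although replicate 4 was far above the others in both lines, so the groups overlapped. Kdelr3 is the scarcest of the 3 paralogues, with a mean of 24.5 TPM in total RNA against 305 for Kdelr2 and 285 for Kdelr1. KM_NTC had 543, 344, 637 and 837 CPM of Kdelr2 in RPFs and KM_4A2cr had 779.7, 493, 754 and 1165 CPM. It too was higher in 4 of 4 pairs (log2 fold change 0.44, SE 0.12, adjusted p = 0.077). Kdelr1 was also higher in every pair but missed the threshold (log2 fold change 0.39, SE 0.13, adjusted p = 0.126). The ratio of Kdelr3 to Kdelr2 within a library, which no scaling can alter, was higher in KM_4A2cr by 0.62 ± 0.15 on the log2 scale in RPFs (SD over 4 pairs) and by 0.41 ± 0.40 in total RNA, where 3 of 4 pairs showed it. The ratio of Kdelr2 to Kdelr1 differed by 0.05 ± 0.15 in RPFs, less than its spread.

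Cargo receptors capture glycoproteins and other cargo into COPII vesicles. The Lman2 RPF level was 183, 99.6, 181 and 212 CPM in replicates 1 to 4 of KM_NTC and 352, 163, 321 and 203 CPM in those of KM_4A2cr. Lman2, a lectin that binds high-mannose glycans, was higher in KM_4A2cr in replicates 1 to 3 and slightly lower in replicate 4 (log2 fold change 0.61, SE 0.18, adjusted p = 0.0844). Its relative Lman1 (ERGIC-53), with its calcium-binding partner Mcfd2, carries coagulation factors and had a log2 fold change of 0.40, and Mcfd2 one of 0.19. Surf4, a receptor for soluble secreted cargo, had 0.42. Ergic1 RPF levels were 250.5, 108, 183 and 226 CPM in KM_NTC (replicates 1 to 4) and 409, 137, 246 and 232 CPM in KM_4A2cr. Ergic1, the receptor of highest mRNA level (466 TPM), cycles between the ER and Golgi with Ergic2 and Ergic3. It was higher in KM_4A2cr in 4 of 4 pairs without passing the test (log2 fold change 0.38, SE 0.14, adjusted p = 0.144), and Ergic2 and Ergic3 had 0.37 and 0.34. In all, 3 of the 10 receptors were called and all 10 had a log2 fold change above 0, with a median of 0.39.

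The p24 proteins (Tmed) are abundant passengers of both coats that act as receptors for GPI-anchored proteins and help form vesicles. For Tmed2, the 4 KM_NTC libraries had RPF levels of 387, 219, 376 and 502 CPM and the 4 of KM_4A2cr had 668, 343, 608 and 651 CPM. Tmed2 was higher in each pair (log2 fold change 0.62, SE 0.13, adjusted p = 0.0287), the groups overlapping through replicate 2 of KM_4A2cr. KM_NTC had 383, 395, 678 and 913 CPM of Tmed10 in RPFs and KM_4A2cr had 679.7, 578, 979 and 1038 CPM. Tmed10, which pairs with Tmed2 and had the highest mRNA level of all members at 939 TPM, was also higher in each pair (log2 fold change 0.52, SE 0.14, adjusted p = 0.0682). Tmed1 was the scarcest of the family at 4.36 TPM, with 115 RPF counts in all of KM_NTC and 197 in KM_4A2cr. The Tmed1 RPF level was 2.90, 3.28, 5.34 and 2.31 CPM in replicates 1 to 4 of KM_NTC and 11.7, 5.41, 6.87 and 1.88 CPM in those of KM_4A2cr. Its difference was large in pair 1 and opposite in pair 4, and it was not called (log2 fold change 0.92, SE 0.32, adjusted p = 0.134). The other 5 members (Tmed3, Tmed4, Tmed5, Tmed7 and Tmed9) had log2 fold changes of 0.17 to 0.35 and none was called. Without replicate 4 all 8 p24 proteins and all 10 receptors were called higher, with a median of 0.53, in a fit that called 19.1% of all genes higher.

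**Figure D2:**
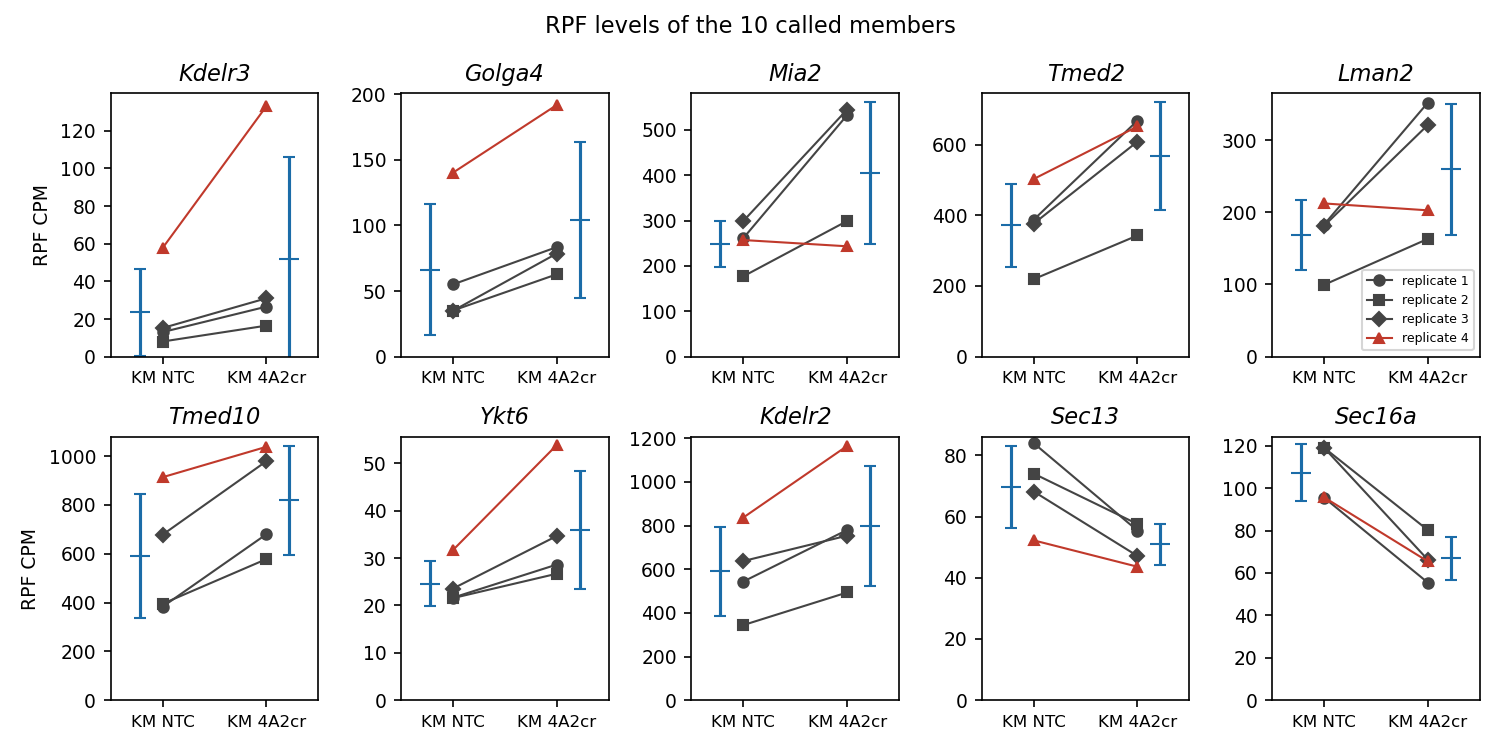
RPF level (CPM, linear axis from 0) of the 10 members called in RPFs, with 1 point per library, lines joining the libraries of 1 replicate, replicate 4 in red, and the mean and SD of the 4 libraries of each line in blue. Kdelr3 is higher in KM_4A2cr in all 4 pairs, Mia2 and Lman2 in replicates 1 to 3 alone, and Sec16a is lower in all 4 with no overlap between the lines.

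COPII assembles from the GTPase Sar1, the cargo-binding Sec23 and Sec24 and the outer cage of Sec13 and Sec31, on scaffolds built by Sec16. Sec16a RPF levels were 95.5, 119, 119 and 95.7 CPM in KM_NTC (replicates 1 to 4) and 55.4, 80.2, 66.2 and 65.4 CPM in KM_4A2cr. All 4 KM_4A2cr libraries were below all 4 of KM_NTC (log2 fold change -0.69, SE 0.12, adjusted p = 0.0202), and Sec16a was the only member whose groups did not overlap in RPFs, as for 2.13% of all genes. It lies on chromosome 2 in the RefSeq annotation, where the median over 833 tested genes was -0.21 in RPFs, the lowest of any chromosome, and the part of that shift in the Sec16a value was not tested. For Sec13, the 4 KM_NTC libraries had RPF levels of 84.0, 74.1, 68.2 and 52.2 CPM and the 4 of KM_4A2cr had 55.4, 57.6, 47.1 and 43.6 CPM. Sec13, which also serves in the nuclear pore, was lower in 4 of 4 pairs (log2 fold change -0.44, SE 0.12, adjusted p = 0.0804).

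The 4 Sec24 paralogues bind different cargo. Log2 fold changes in RPFs were -0.37 for Sec24b, -0.12 for Sec24c, 0.03 for Sec24a and 0.19 for Sec24d, none of them called. Sec23b and Sec31a had -0.32 and -0.10, while Sec23a had 0.35. The Sec23a to Sec23b ratio was higher in KM_4A2cr in every one of the 4 pairs, by 0.65 ± 0.34 (SD, n = 4 pairs) in RPFs and 0.54 ± 0.38 in total RNA. Sec23b, like Sec16a, lies on chromosome 2. The Sec24a to Sec24b ratio was likewise higher in 4 of 4 pairs, by 0.39 ± 0.21 in RPFs and 0.22 ± 0.31 in total RNA. The Sec24c to Sec24d ratio differed by less than its spread, by -0.31 ± 0.40 in RPFs and -0.27 ± 0.36 in total RNA. Ratios of Sar1a to Sar1b, Copg1 to Copg2 and Copz1 to Copz2 also changed by less than their spread in both kinds. So did those of Gorasp1 to Gorasp2, Gosr1 to Gosr2 and Arf4 to Arf1. These ratios were given as descriptions, without a test. Sar1a, Sar1b and Preb, the exchange factor that loads Sar1 with GTP, had 0.08, 0.18 and 0.04. Without replicate 4, Sec16a, Sec13, Sec24b, Sec24c, Sec23b and Sec31a were all called lower, in a fit that called 14.3% of all genes lower.

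Mia2 and Mia3 (TANGO1) are membrane proteins of the exit site that package bulky cargo such as collagens and lipoproteins, and both had log2 fold changes above 0. KM_NTC had 261, 177, 299 and 257 CPM of Mia2 in RPFs and KM_4A2cr had 533, 299, 545 and 243 CPM. Mia2 was higher in KM_4A2cr in replicates 1 to 3 and close to KM_NTC in replicate 4 (log2 fold change 0.65, SE 0.18, adjusted p = 0.0815). Mia3 had a log2 fold change of 0.41 and was not called. Mia2 RPFs were counted on 1 isoform that held 12.8% of the gene's TPM, the smallest share of any member, whereas its total RNA was summed over all isoforms.

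COPI is a heptamer that Arf1 and its relatives recruit to Golgi membranes. None of its 10 tested members was called in RPFs by edgeR or DESeq2, and 0 had an unadjusted p under 0.05, a share not counted over all genes. Their log2 fold changes ran from -0.19 for the alpha subunit Copa to 0.16 for the zeta subunit Copz1, with a median of -0.04. The Arf4 RPF level was 145, 116, 105 and 137 CPM in replicates 1 to 4 of KM_NTC and 131, 123, 109.6 and 171 CPM in those of KM_4A2cr. Arf4, the member of highest mRNA level in the group (268 TPM), was within the spread of the libraries (log2 fold change 0.08, SE 0.13, adjusted p = 0.753). The small medians hid opposite pairs. Copa was lower by 0.43, 0.40 and 0.52 on the log2 scale in pairs 1, 2 and 3 of RPFs and higher by 0.63 in pair 4. Of the 10 members, 6 were lower in pairs 1 to 3 and above 0 in pair 4, a pattern that 12.4% of all genes had, and all 10 were above 0 in pair 4. Without replicate 4, Copa, Copb2 and Copg2 were called lower and none higher, against 14.3% and 19.1% of all genes.

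The receptors and p24 proteins had the mirror pattern. All 18 were above 0 in pairs 1, 2 and 3 of RPFs, as were 27.1% of all genes, with medians of 0.68, 0.55 and 0.38. In pair 4 the median was -0.06 and 8 of 18 were above 0. The balance of receptors to COPI, the difference of the median log2 CPM of the 18 and of the 10 within a library, does not depend on scaling. In RPFs it was 0.79, 0.24, 1.36 and 1.79 in replicates 1 to 4 of KM_NTC and 1.66, 1.09, 1.85 and 0.90 in KM_4A2cr. It was thus above the control by 0.88, 0.85 and 0.49 in the first 3 pairs and the difference was -0.90 in pair 4. In total RNA the differences were 0.71, 0.42, 0.68 and -0.60. The groups of libraries overlapped in both kinds.

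**Figure D3:**
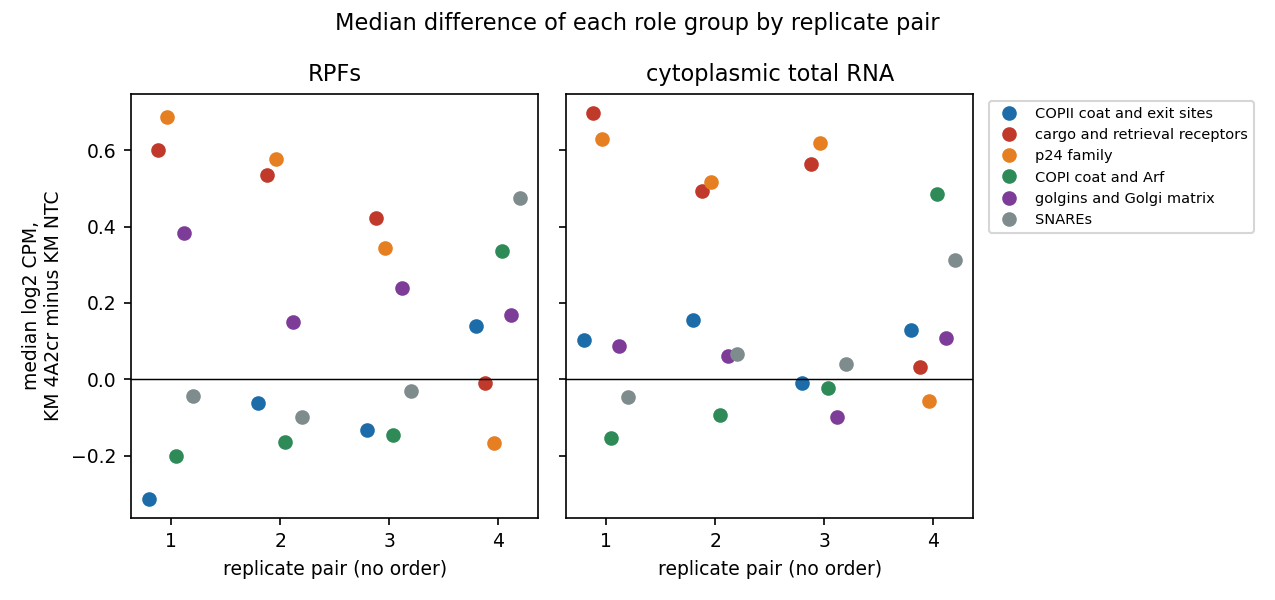
Median log2 CPM difference, KM_4A2cr minus KM_NTC, of each of the 6 role groups in each replicate pair, in RPFs on the left and total RNA on the right, with 1 point per group and pair (pairs have no order, and points are set apart sideways for clarity). The receptors and the p24 family lie above the other groups in pairs 1 to 3 and below the COPI and SNARE groups in pair 4.

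Replicate 4 itself differed in the level of these genes. Against the mean of replicates 1 to 3 of the same line, the 18 receptors and p24 proteins had a median log2 difference of 0.93 in KM_NTC and 0.42 in KM_4A2cr in RPFs, and 0.62 and 0.05 in total RNA. The COPI members had 0.01 in KM_NTC and 0.51 in KM_4A2cr in RPFs, and 0.03 and 0.72 in total RNA. Over all genes, the medians were between -0.05 and 0.02, values that the scaling itself keeps near 0. Single genes ran from -5.50 to 4.68. The level of the receptors and p24 proteins was thus raised in the control libraries of replicate 4 and, by less, in its KM_4A2cr RPFs. The level of COPI was raised in the KM_4A2cr libraries of replicate 4. The cause was not tested.

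Golgins are long coiled-coil proteins that reach out from the Golgi to catch vesicles. Golga4 RPF levels were 55.0, 35.1, 34.9 and 140.1 CPM in KM_NTC (replicates 1 to 4) and 83.4, 62.7, 78.6 and 192 CPM in KM_4A2cr. Golga4, a trans-Golgi golgin, was higher in KM_4A2cr in 4 of 4 pairs (log2 fold change 0.76, SE 0.15, adjusted p = 0.0253) and was the only one of 11 in its group called. Golga5, Golim4, Gorasp1, Golgb1 (giantin) and Uso1 (p115) had log2 fold changes of 0.45, 0.37, 0.27, 0.24 and 0.24, and Golga3, Gorasp2, Golph3 and Golga1 had 0.19, 0.17, 0.15 and 0.07. Golga2 (GM130), the cis-Golgi partner of p115, had the only value below 0, -0.34, and was lower in 4 of 4 pairs. It lies on chromosome 2, as do Golga1 and Gorasp2 of its group and the receptors Surf4 and Ergic3. For Golph3, the 4 KM_NTC libraries had RPF levels of 58.5, 45.4, 67.1 and 55.8 CPM and the 4 of KM_4A2cr had 52.0, 48.7, 73.1 and 83.5 CPM. Golph3, which binds phosphatidylinositol 4-phosphate at the Golgi and had the highest mRNA level of its group at 189 TPM, did not differ beyond its spread (log2 fold change 0.15, SE 0.15, adjusted p = 0.565). The group median was 0.24.

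Among the SNAREs, Ykt6, which is held on membranes by lipid anchors in place of a transmembrane segment, was the only one called. KM_NTC had 21.6, 21.5, 23.6 and 31.7 CPM of Ykt6 in RPFs and KM_4A2cr had 28.6, 26.7, 34.7 and 53.9 CPM. It was higher in 4 of 4 pairs (log2 fold change 0.51, SE 0.13, adjusted p = 0.0679). The Gosr2 RPF level was 20.4, 26.4, 28.9 and 43.2 CPM in replicates 1 to 4 of KM_NTC and 23.9, 24.1, 27.9 and 57.6 CPM in those of KM_4A2cr. Gosr2, the SNARE of highest mRNA level (50.0 TPM), differed by less than its spread (log2 fold change 0.12, SE 0.14, adjusted p = 0.658). Bet1, Stx5a, Sec22b and Gosr1 had log2 fold changes between -0.09 and 0.22, and all 6 SNAREs were above 0 in pair 4.

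When members were grouped by how their proteins meet the membrane, a grouping made from textbook knowledge after the values were seen and therefore not tested, the median RPF log2 fold change of the 22 made at the ER was 0.39, with 22 above 0. Preb, placed among the 22 without a check of its protein sequence, had their lowest value, 0.04. The 30 cytosolic or peripheral ones that were tested had 0.07 with 17 above 0 (11 above 0 when scaled by library size alone), and the 7 with a C-terminal anchor, inserted after synthesis, had 0.12. In pair 4 the medians were -0.06, 0.33 and 0.41.

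In cytoplasmic total RNA, 6 of the 18 receptor and p24 mRNAs rose in KM_4A2cr and no member fell. Those called were the 3 KDEL receptors and the p24 proteins Tmed1, Tmed3 and Tmed10, that is, 6 of 59 members, against 6.13% of 10880 genes called over all (4.35% higher and 1.78% lower). Of the 59, 17 had an unadjusted p under 0.05, all 17 higher, and DESeq2 called 8 higher and 0 lower. The share of all genes was counted for neither, so these counts cannot be read as particular to the members. The median log2 fold change was 0.15, with 46 of 59 above 0, against 0.01 over all genes. Without replicate 4, 23 members were called higher and 2 lower, against 17.8% and 12.0% of all genes (29.8% in either direction). Without replicate 3 none of the 59 was called, 7 having an unadjusted p under 0.05, and without replicate 1 or 2 only Kdelr3 was. As for RPFs, the share of all genes called in these fits was not counted. RPFs and total RNA came from shared lysates and are set side by side, not as independent evidence.

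Kdelr3 mRNA levels were 9.96, 6.66, 7.98 and 30.5 CPM in KM_NTC (replicates 1 to 4) and 19.8, 9.54, 18.9 and 66.4 CPM in KM_4A2cr. Kdelr3 mRNA was higher in 4 of 4 pairs (log2 fold change 0.98, SE 0.16, adjusted p = 0.0104), with replicate 4 high in both lines as in RPFs. For Kdelr2, the 4 KM_NTC libraries had mRNA levels of 271, 158, 256 and 341 CPM and the 4 of KM_4A2cr had 461, 226, 405 and 396 CPM. Kdelr2 mRNA was higher in 4 of 4 pairs as well (log2 fold change 0.54, SE 0.14, adjusted p = 0.073). KM_NTC had 129, 95.2, 144 and 309 CPM of Kdelr1 in total RNA and KM_4A2cr had 215, 142, 244 and 325 CPM. The difference in Kdelr1 was present in replicates 1 to 3 and small in replicate 4 (log2 fold change 0.54, SE 0.15, adjusted p = 0.0842).

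The Tmed3 mRNA level was 38.0, 37.1, 46.8 and 108 CPM in replicates 1 to 4 of KM_NTC and 73.4, 57.5, 72.7 and 113 CPM in those of KM_4A2cr. Tmed3 was higher in every pair, narrowly in replicate 4 (log2 fold change 0.57, SE 0.15, adjusted p = 0.077). Tmed10 mRNA levels were 335, 342, 519 and 598 CPM in KM_NTC (replicates 1 to 4) and 575, 493, 826 and 738 CPM in KM_4A2cr. Tmed10 was higher in every pair (log2 fold change 0.57, SE 0.15, adjusted p = 0.0729). For Tmed1, the 4 KM_NTC libraries had mRNA levels of 2.10, 1.71, 2.43 and 1.53 CPM and the 4 of KM_4A2cr had 5.07, 3.44, 7.20 and 1.38 CPM. Tmed1 had the largest fold change of any member, 2.15-fold, but rested on 60 expected counts in KM_NTC and 102 in KM_4A2cr (log2 fold change 1.11, SE 0.28, adjusted p = 0.0641), and DESeq2 did not call it (adjusted p = 0.193). All 18 receptor and p24 mRNAs were above 0 in pairs 1 to 3 (26.1% of all genes were), and 10 of 18 in pair 4. Without replicate 4 all 18 were called higher, with a median of 0.57, in a fit that called 17.8% of all genes higher.

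Members called in RPFs but not in total RNA had these mRNA values. Tmed2 and Lman2 mRNAs had log2 fold changes of 0.41 and 0.48, Golga4 and Mia2 0.46 and 0.37, and Ykt6 0.21. Sec13 and Sec16a mRNAs had -0.07 and -0.12. COPI mRNAs had a median of 0.06, or -0.10 when scaled by library size alone, again made of opposite pairs: -0.15, -0.09 and -0.02 in the first 3 pairs, then 0.48 in pair 4, where all 10 were above 0. Tmed5 had a value of 0.00 from differences of 0.35, 0.33 and 0.33 in the first 3 pairs and -1.03 in the last. By pair, 17 of the 59 mRNAs were higher in 4 of 4 (12.4% of all genes) and 2 lower in 4 of 4 (13.0%). In 12 the mRNA was higher in pairs 1 to 3 and lower in pair 4 (13.6%), and in 9 the reverse held (12.2%). None of the 59 had groups that did not overlap, against 1.97% of all genes.

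In translational efficiency (TE), RPFs relative to total RNA, 3 golgins rose and Sec16a fell. The golgins were Golga5 (golgin-84), Golga1 (golgin-97) and Uso1, so that 4 of 59 members were called, against 2.87% of 9989 genes (1.87% higher and 1.0% lower). No receptor, p24 protein, COPI member or SNARE was called by edgeR. Of these 34, 4 had an unadjusted p under 0.05, a share not counted over all genes. The TE medians were -0.03 for the 18 receptors and p24 proteins and -0.09 for COPI. The median over all members was -0.02, as over all genes.

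KM_NTC had 31.4, 30.8, 24.5 and 40.9 CPM of Golga5 in RPFs and KM_4A2cr had 41.1, 38.1, 28.8 and 74.6 CPM. The Golga5 mRNA level was 67.3, 58.8, 54.1 and 94.1 CPM in replicates 1 to 4 of KM_NTC and 58.4, 55.4, 47.3 and 121 CPM in those of KM_4A2cr. Golga5 RPFs were higher in KM_4A2cr in 4 of 4 pairs while its mRNA was lower in 3 of 4, and TE rose (log2 fold change 0.48, SE 0.11, adjusted p = 0.0367). Uso1 RPF levels were 143, 138, 132 and 154 CPM in KM_NTC (replicates 1 to 4) and 166, 153, 176 and 174 CPM in KM_4A2cr. For Uso1, the 4 KM_NTC libraries had mRNA levels of 137, 157, 160.2 and 129.7 CPM and the 4 of KM_4A2cr had 128, 151, 149.6 and 124 CPM. Uso1 RPFs were higher and its mRNA slightly lower in 4 of 4 pairs (log2 fold change 0.32, SE 0.09, adjusted p = 0.0979).

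KM_NTC had 30.1, 23.8, 24.1 and 19.1 CPM of Golga1 in RPFs and KM_4A2cr had 42.5, 26.1, 27.5 and 10.8 CPM. The Golga1 mRNA level was 74.9, 56.3, 60.6 and 30.5 CPM in replicates 1 to 4 of KM_NTC and 76.0, 51.8, 47.1 and 13.4 CPM in those of KM_4A2cr. Golga1, on chromosome 2, was lowest in replicate 4 of KM_4A2cr in both kinds of library, its mRNA falling short of the test while TE rose (log2 fold change 0.42, SE 0.12, adjusted p = 0.0968). Sec16a mRNA levels were 58.6, 73.1, 57.9 and 65.5 CPM in KM_NTC (replicates 1 to 4) and 63.4, 73.7, 44.7 and 54.6 CPM in KM_4A2cr. Sec16a mRNA overlapped between lines (log2 fold change -0.12, SE 0.13, adjusted p = 0.67), and with the lower RPFs given above its TE fell (log2 fold change -0.57, SE 0.11, adjusted p = 0.0143). Over the 804 chromosome 2 genes the median TE difference was -0.02.

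Of the 11 golgins, 9 had a TE difference above 0, with a median of 0.16. Of the 14 COPII members, 5 did. RPFs of Golga5, Golga1 and Uso1 were counted on an isoform that held 54.0%, 51.5% and 51.1% of the gene's TPM, so changes in isoform use enter these TE values, and their part was not tested. For Sec16a the share was 100%. Without replicate 4, 8 members were called higher in TE (5.04% of all genes) and 3 lower (2.9%), with 7.94% of all genes called in either direction. These were Golga4, Golga5, Mia2, Uso1, Golim4, Golga1, Ykt6 and Lman2, and Sec16a, Sec24b and Sec24a. Without replicate 1, 2 or 3, none was called, with 6, 13 and 10 members at an unadjusted p under 0.05. For these fits too, the share of all genes called was not counted.

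**Figure D4:**
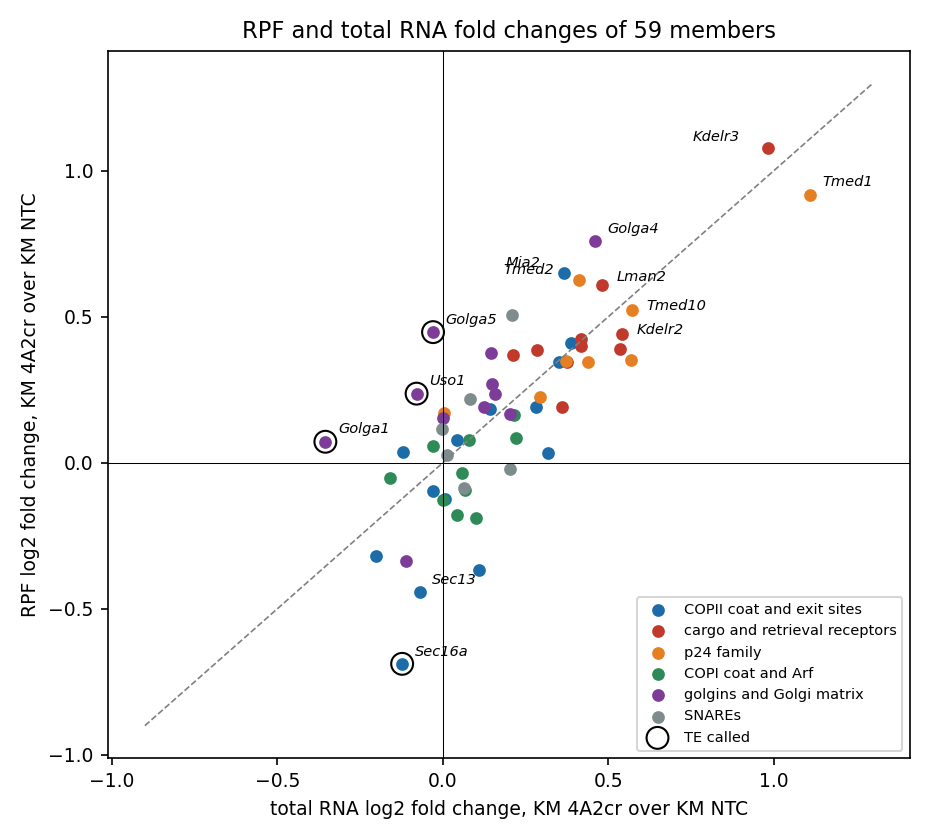
RPF log2 fold change (vertical axis) against total RNA log2 fold change (horizontal axis), KM_4A2cr over KM_NTC, for the 59 tested members, coloured by role group. The dashed line marks equal change, rings mark the 4 members called in TE, and the libraries of both axes share lysates. Kdelr3 lies at 1.08 in RPFs and 0.98 in total RNA, and Sec16a at -0.69 and -0.12.

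RefSeq promoters (GRCm38.p6, 250 bases before to 50 after a start) were matched for 53 of the 60 members, 62 promoters in all. No promoter was matched for Arcn1, Lman1, Kdelr2, Tmed2, Tmed7, Golga4 or Golgb1. TGACGTG, a cAMP response element-like motif of the kind bound by CREB3-family and other bZIP factors, was present on either strand in 10 of 62 member promoters (16.1%), against 2.87% of 10426 promoters of the other genes tested in RPFs and 2.01% of all 32851 promoters. These 10 belong to 9 genes. The Arf1 match lies in overlapping promoters and is counted in each but shown once, and a single Stx5a promoter holds both Stx5a windows. A match is a description of the letters, not a site in use. The windows below are shown because they hold these matches, 5′ to 3′ along the gene, with the motif or its reverse complement in capitals.
Arf1, chr11:59228230-59228256, - strand: cggcaggcgcTGACGTGgctgccgtca
Copb1, chr7:114254691-114254717, - strand: cgcccccttcCACGTCAgccaaggact
Copb2, chr9:98563715-98563741, + strand: ccggaagttcCACGTCAgtgggttggc
Golga1, chr2:39065694-39065720, - strand: tgcctctcgcTGACGTGtcagtggccg
Kdelr3, chr15:79516369-79516395, + strand: gccgccccgcCACGTCAccgcgcggcc
Mia3, chr1:183369635-183369661, - strand: gagcccttgcTGACGTGtcactcgcag
Sec23a, chr12:59011995-59012021, - strand: tcctccccttTGACGTGgcagaggcgg
Sec24d, chr3:123267460-123267486, + strand: cccgggcgccTGACGTGgcactagcaa
Stx5a, chr19:8741424-8741450, + strand: gcgcagcagcCACGTCAccgagttagg
Stx5a, chr19:8741453-8741473, + strand: tacgtctaggTGACGTGgcgg

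Kdelr3, the member with the largest RPF increase, held the motif 29 bases before its start, and the promoter of Kdelr1 held none. Kdelr2 had no matched promoter, so the KDEL receptors cannot be compared in full. The 9 genes include the COPII members Sec23a, Sec24d and Mia3 and the COPI members Arf1, Copb1 and Copb2, and of the 9 only Kdelr3 was called in total RNA. Among other motifs, TGACGTCA was in 3 member promoters (4.84%, against 3.14% of the tested genes' promoters) and CACGTG in 8 (12.9%, against 10.3%). The longer ER stress response element was in 0 of 62, against 0.134%. The 3 short motifs share the core ACGT but differ in the bases beside it, so 1 core can match only 1 of them.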

How the data were processed

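RPFs and cytoplasmic total RNA of 4 replicates per line were analysed. For RPFs, the authors deposited counts per transcript over the coding sequence, after Cutadapt trimming, alignment with BBmap to 1 transcript per gene (GENCODE vM27) and collapsing of duplicates with UMI-tools 1.0.1. For total RNA, the authors deposited RSEM 1.3.3 expected counts and TPM per isoform, after alignment with Bowtie2 2.3.5.1. Expected counts were summed per gene and rounded. Tool versions are those of the submitters' processing notes.

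Genes were filtered with filterByExpr, scaled by TMM and tested with edgeR 4.0.16 (glmQLFit, glmQLFTest, R 4.3.3) with the replicate as a block. P-values are two-sided and Benjamini-Hochberg adjusted over all genes tested, and the SE is the log2 fold change divided by the square root of F. TE was the interaction of line and kind of library over all 16 libraries, with lysate terms. The scripts were tested on simulated data. Libraries were paired by replicate number, because replicates are experiments on different days per the labels. Deviations of same-numbered libraries from their group means correlated in every pair (r of 0.58 to 0.78 in RPFs and 0.61 to 0.76 in total RNA). Differently numbered libraries were not compared, so these correlations cannot show that the numbers pair the libraries. Pair differences used log2 CPM with a prior count of 2. DESeq2 1.42.0, other scalings and filters and leaving out each replicate were alternatives.

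Members called in any of the 3 comparisons, and the member of highest mean TPM in each role, were named with every library's value. Members, roles and lists were chosen with earlier results of these data known. RPFs counted on 1 isoform (12.8% to 100% of a gene's TPM, median 70.9%) differ from total RNA summed over isoforms. Counts limit low genes such as Tmed1. Chromosomes and promoters are from RefSeq GRCm38.p6, not the build of the alignments. Protein sequences were not analysed here. One engineered allele that both lines share is not reported here.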

Additional observations from a re-analysis of the deposited data

Results flagged for a closer look

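Of 80 groups of 4 libraries checked for a library far from the other 3, 3 were flagged, and chance flags about 1 in 20 groups. In total RNA, Golga4 was at 595 CPM in replicate 4 of KM_4A2cr against 198 to 215 CPM in replicates 1 to 3, and the KM_NTC library of replicate 4 was also its line's highest, at 402 CPM. In RPFs, Tmed2 was at 343 CPM in replicate 2 of KM_4A2cr against 608 to 668 CPM in the others, and the KM_NTC library of replicate 2 was also its line's lowest, at 219 CPM. In total RNA, Lman2 was at 119 CPM in replicate 2 of KM_NTC against 176 to 191 CPM in the others, and replicate 2 was lowest in KM_4A2cr too, at 156 CPM.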

How the results depend on the processing

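The main counts of called members were 10 in RPFs, 6 in total RNA and 4 in TE. Without the replicate block, no member was called in RPFs, total RNA or TE (0 each), with 2, 1 and 4 members at an unadjusted p under 0.05, and the total RNA median was 0.20. At an adjusted p of 0.05 the counts were 4, 1 and 2. Upper-quartile and library-size scaling each left 2 called in total RNA and 2 in TE. Leaving out 1 replicate gave 1 to 35 in RPFs, 0 to 25 in total RNA and 0 to 11 in TE, the highest without replicate 4. Apart from the main counts and those without replicate 4, the share of all genes called was not counted for these settings. The member median of 0.19 in RPFs was 0.149 with upper-quartile and 0.0592 with library-size scaling, and 0.20 to 0.21 with 1 replicate left out. That of 0.15 in total RNA was 0.107, -0.0090 and 0.16 to 0.21, and 0.13 with no filter. No call reversed. Among uncalled values that changed sign, library-size scaling gave Golga1 -0.0707, Arf4 -0.0523 and Gosr2 -0.0130 in RPFs and Arf4 -0.0782 in total RNA. With no block, total RNA values were 0.0369 for Golga5, 0.0168 for Golph3 and 0.0418 for Gosr2, and with the RPF isoform alone 0.0017 for Golga5 and 0.0158 for Gosr2. With 1 replicate left out, RPF values ran from -0.10 to 0.28 for Golga1 and -0.0011 to 0.15 for Arf4, and total RNA values from -0.17 to 0.0284 for Golga5, -0.11 to 0.12 for Golph3, -0.16 to 0.11 for Gosr2 and -0.29 to 0.0802 for Sec13. The causes were not tested. Median-of-ratios scaling, a floor of 5 CPM and, where it was run, DESeq2 changed no count of calls by over 1.5 times. Depth limits Tmed1 and Copz2 most.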

Other observations

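Beyond the 60 genes, 69 other genes of ER export and the Golgi were examined, of which 68 were tested in each comparison. In RPFs, 6 rose and 4 fell, against 6.6% and 3.72% of all genes, with a median log2 fold change of 0.06. Without replicate 4, 16 rose and 9 fell, against 19.1% and 14.3% of all genes. With all 4 replicates, those that rose were Lman2l, a lectin related to Lman2 (log2 fold change 0.92), Creb3l2, a membrane-bound transcription factor of secretory pathway genes (0.86), the cargo escorts Cnih1 and Cnih4 (0.63 and 0.41), the Golgi protein Tmf1 (0.57) and Yif1b of the YIP family (0.45). Tfg, which organises ER exit sites (-0.56, on chromosome 16), the COPI regulator Arfgap2 (-0.53, on chromosome 2), the TRAPP tether subunit Trappc2l (-0.45) and the golgin partner Blzf1 (-0.43) fell. In total RNA, 2 of the 68, Creb3l2 (1.11) and Lman2l (0.72), rose, against 4.35% of all genes. Without replicate 4, 16 rose and 1 fell, against 17.8% and 12.0%. In TE, 1 of the 68, Tmf1 (0.52), rose, against 1.87%.

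The YIP family are 8 multi-pass membrane proteins of the early Golgi. Their mRNAs were above 0 in 8 of 8 members in each of pairs 1 to 3 (26.1% of all genes were), with medians of 0.40, 0.39 and 0.43. In pair 4, 2 of 8 were above 0, with a median of -0.18. In RPFs, 8, 7 and 5 of the 8 were above 0 in pairs 1 to 3, with medians of 0.41, 0.43 and 0.10, and 3 of 8 in pair 4, with a median of -0.21. The 14 TRAPP tether subunits, which are cytosolic, had RPF medians of -0.07, -0.04, -0.18 and -0.02 in pairs 1 to 4. The 8 COG tether subunits had -0.04, -0.06, -0.31 and 0.49. The 9 other ER tether and SNARE genes had -0.14, 0.11, 0.16 and -0.24, and the 8 Arf regulators -0.10, -0.02, -0.02 and 0.25. The 16 other export and Golgi proteins had 0.35, 0.29, 0.32 and -0.15, and the 5 tested secretory transcription factors 0.25, 0.12, -0.09 and -0.23. These groups were described without a test. Xbp1, the transcription factor of the unfolded protein response, had log2 fold changes of 0.42 in RPFs and 0.58 in total RNA and was not called, and Atf6 had 0.01 in both.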
